A study of Gallus gallus with 36 samples.

Results

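At circadian time (CT) 0, the start of the subjective day, RNA of 3 chicken pineal libraries was set against RNA of 3 retina libraries. The genes described are those whose difference between the tissues at CT0 departed from their mean difference over the other 5 times, CT4, CT8, CT12, CT16 and CT20. Of 16831 transcripts tested, 939 did so (5.58%), and they belong to 908 Ensembl genes. The 6 CT0 libraries are part of a series of 36 in 12 groups, with 3 libraries for each tissue and time. All birds, in every group, were obtained when 1 day old from a commercial hatchery, were kept on a 12 h light and 12 h dark cycle until day 9, and were in constant darkness on day 10, when sampling began at CT0. Each pineal library pooled 3 glands and each retina library held 1 retina. No strain, genotype or drug is given in the labels. Since CT0 was the first time taken and a single cycle was sampled, circadian time and time spent in darkness cannot be told apart.

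The pineal gland of birds holds photoreceptor-like pinealocytes with a clock of their own, and releases melatonin at night. The retina also holds a clock and makes melatonin, in its photoreceptors. In the clock of both, ARNTL and CLOCK proteins switch on the period and cryptochrome genes and BHLHE40 and NR1D2, whose products act back to repress the activators or their genes. A gene with a deep cycle in one tissue and a shallow or shifted one in the other has a tissue difference that itself moves through the day, and CT0 is where several clock genes turn.

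Totals ran from 7329392 to 7870054 counts in the pineal CT0 libraries and from 6151924 to 7418485 in those of the retina. Levels are CPM, counts scaled to a common library size, after TMM scaling, given in the order of replicates 1, 2 and 3, and the levels at the other times are given as the lowest, median and highest of 15 libraries. Differences are log2, pineal minus retina, ± SE, from edgeR's quasi-likelihood fit over all 36 libraries, and p-values carry a Benjamini-Hochberg adjustment across every transcript tested. A call means an adjusted p under 0.05. The labels do not state that replicate libraries are of different birds. The p-values therefore speak only of variation among these libraries, possibly technical. In whole tissue, fewer cells of a type and less RNA per cell cannot be told apart.

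The labels held against the markers of the tissues. Of the pineal markers, AANAT, ASMT, TPH1, the pineal opsin OPNP and the homeobox gene BSX were higher in the pineal gland at CT0, GNB3 was higher in the retina, and LHX3 was not called (0.12 ± 0.12, adjusted p = 0.402). All 7 retina markers that could be tested, among them PAX6 and RBPMS2, were higher in the retina. BSX had 148, 136 and 140 CPM in the pineal libraries and 0.138, 0 and 0.329 CPM in those of the retina. PAX6, a transcription factor of retinal neurons, had 378, 322 and 325 CPM in the retina and 6.21, 5.65 and 3.47 CPM in the pineal gland. TTR, a choroid plexus transcript, stood at 27400, 31500 and 23800 CPM in the pineal CT0 libraries and at 74.4, 120 and 171 CPM in the retina. Among the other 15 pineal libraries it ran from 980 to 44100 CPM, and 3 of them, CT12 replicates 1 and 3 and CT20 replicate 1, lay below all the rest. Pigment cell markers differed among the retina CT0 libraries, with TYRP1 at 94.4, 93.7 and 278 CPM. Pineal CT0 replicate 2 was high in some neuronal transcripts and not in others. GAD67, the GABA-making enzyme, was chosen after its values were seen. It was at 21.8 CPM there and at 3.17 and 6 CPM in replicates 1 and 3. PAX6 (49, 45 and 26 counts in replicates 1, 2 and 3) and CALB2 (1020, 1016 and 855 counts) were not highest there. In replicate 2, 10 transcripts of any kind exceeded 3 times their level in every other pineal library. The 17 other pineal libraries had 0 to 11 such transcripts, with a median of 2. Counts of departures are given also without these libraries, as are some of the genes that rest on them.

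The tissues as a whole differed at CT0 in 11098 transcripts (65.9%), 5726 of them higher in the pineal gland (34.0%) and 5372 higher in the retina (31.9%). The 3 pineal libraries did not overlap the 3 retina libraries in 69.9% of all tested transcripts. With limma on log2(FPKM + 0.1), which changes unit, scaling and test together, the median of all transcripts moved from 0.03 to 0.23, and 7187 were higher in the pineal gland and 4261 in the retina. With only the size factors changed, to those of DESeq2, the counts were 5851 and 5253. The widest differences at CT0 were of transcripts with no counts in the other tissue. TINAGL1 and POSTN, which encode matrix proteins, and KCNQ1, a potassium channel subunit, had no count in the 3 retina CT0 libraries. TINAGL1 had 121, 125 and 123 CPM in the pineal gland, at least 845-fold higher against a floor of 3 counts over the 3 retina libraries. POSTN was at least 541-fold and KCNQ1 at least 538-fold higher. The collagen-binding proteoglycan DCN had 655, 596 and 659 CPM against 3 retina counts, a ratio of 4370 (95% exact interval 1490 to 21200, counting error only). In the other direction, PNPLA1, a lipid-metabolism gene, had 55.1, 63.7 and 74.6 CPM in the retina and was at least 498-fold higher there. NYX, the nyctalopin of ON bipolar cells, was at least 220-fold, TM4SF4 at least 189-fold and the homeobox gene HMX1 at least 167-fold higher in the retina. DNAH9, a motor protein of cilia, was at least 1300-fold higher in the pineal gland and the calcium channel CACNA1B at least 349-fold higher in the retina, each for 1 transcript of a gene with several. None of these 10 was called for departure: each was a difference of the tissues at the other times too.

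A positive departure means that the pineal gland stood higher against the retina at CT0 than it did on average over the other times, and a negative one that it stood lower. Positive departures numbered 387 (2.3%) and negative ones 552 (3.28%). Their median size was 0.53 and 0.52 on the log2 scale, and 161 reached 1. An unadjusted p under 0.05 was reached by 2601. Most departures came with a shift of the pineal gland. Against its own other 5 times, pineal CT0 was called in 330 of the 387 and 479 of the 552. Retina CT0 was called in 60 and 93. Since the departure is the pineal shift minus the retina shift, choosing departures favours called shifts in either tissue, and these counts only describe. Over all tested transcripts, pineal CT0 was called against its other times in 2016 (12.0%; 5.79% higher and 6.19% lower) and retina CT0 in 413 (2.45%; 1.21% higher and 1.25% lower). Over the other 5 times 42.7% of transcripts were higher in the pineal gland and 38.8% in the retina. By size alone, whatever its direction, the tissue difference was wider at CT0 in 161 of the positive and 327 of the negative departures. It was narrower in the rest, and differences that turned are found on both sides. Widening was not counted over all transcripts tested, so these numbers only describe. The positive count was 228 without retina CT0 replicate 3. Against the neighbouring times CT4 and CT20 alone, 114 positive and 145 negative departures were called. Without pineal CT0 replicate 2 the counts were 299 and 406, and without the 3 pineal libraries low in TTR they were 472 and 484.

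**Figure D1:**
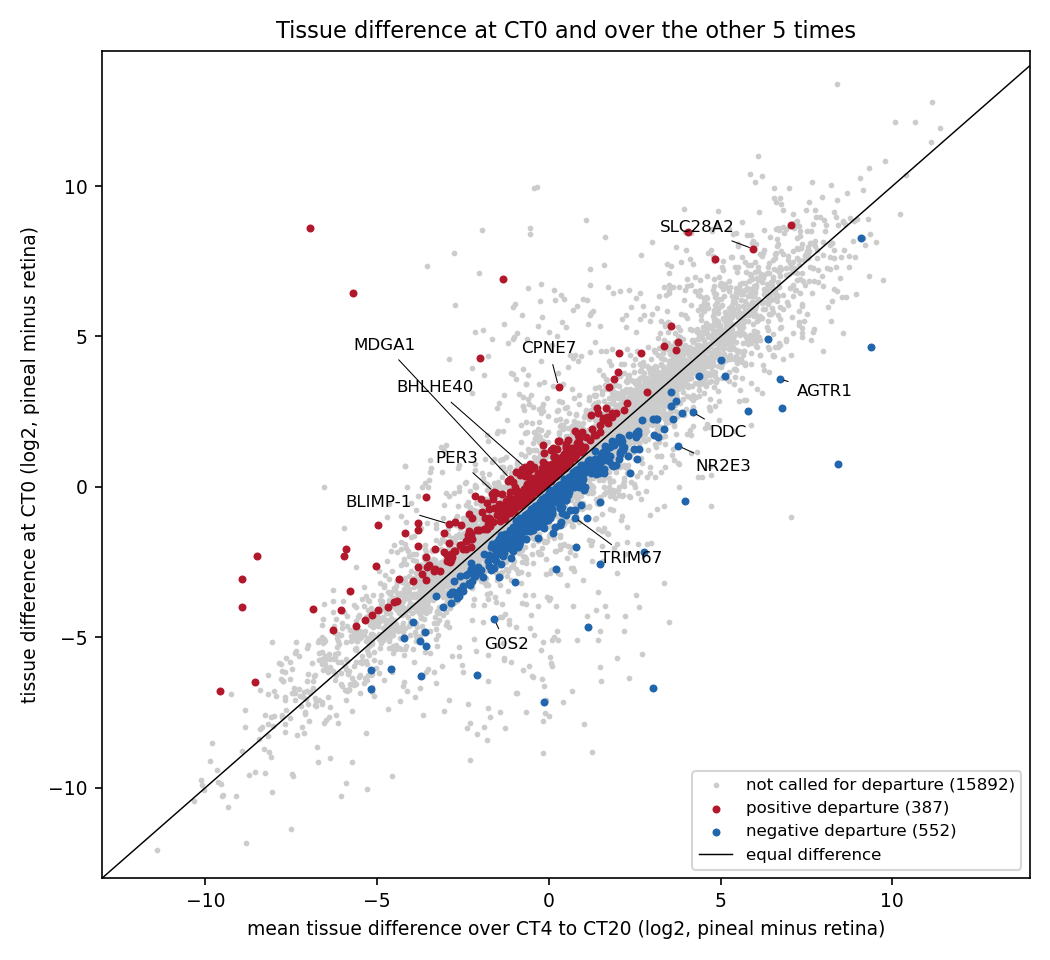
Tissue difference of each tested transcript at CT0 (vertical axis, log2, pineal minus retina) against its mean over the other 5 times (horizontal axis, log2). Red points are the 387 positive and blue points the 552 negative departures, grey points were not called, and the line marks equal differences. G0S2, DDC and NR2E3 lie below the line, and PER3, BHLHE40 and BLIMP-1 above it.

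Clock genes departed in both directions. The lists used here were chosen with earlier results of these data known, so their counts describe and do not test. Of 7 tested clock repressors, 4 had positive departures and 1 a negative one, with a median departure of 1.12 against 0 for all transcripts tested. Of 6 clock activators, 3 had negative departures, with a median of -0.31. Against CT4 and CT20 alone, 2 repressors stayed positive and 1 negative, and of the activators none was negative and 1 was positive.

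PER3, a period gene, had 299, 274 and 319 CPM in the pineal gland at CT0 and 359, 309 and 335 CPM in the retina. The libraries of the tissues overlapped, and the difference at CT0 was -0.17 ± 0.12 (adjusted p = 0.234). Over the other times the pineal gland ran from 12.5 through 49.2 to 216 CPM and the retina from 82.2 through 139 to 280 CPM, a mean difference of -1.60 ± 0.06. The departure was 1.43 ± 0.14 (edgeR adjusted p = 6.65e-08), and both tissues rose at CT0, the pineal gland by 2.69 and the retina by 1.26. The differences at CT4 and CT16 were -0.02 and -3.10, so that the near-equality of the tissues at CT0 held at CT4 as well. The departure of PER3 was not called against CT4 and CT20 alone (adjusted p = 0.166).

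PER2, the other period gene tested, had 291, 269 and 287 CPM in the pineal gland and 358, 353 and 299 CPM in the retina. The retina libraries lay above those of the pineal gland, but the CT0 difference of -0.25 ± 0.12 was not called (adjusted p = 0.0557). Over the other times the difference was -1.37 ± 0.06, which gave a departure of 1.12 ± 0.13 (edgeR adjusted p = 9.63e-07). As in PER3, the 2 tissues were close at both CT0 and CT4 and far apart at CT16, where the difference was -2.35.

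BHLHE40, which encodes a transcriptional repressor of clock genes, turned over between the tissues. At CT0 it had 144, 143 and 165 CPM in the pineal gland and 103, 96.4 and 89.5 CPM in the retina, with no overlap. In the other pineal libraries it ran from 25.3 through 50.3 to 75.6 CPM, below every CT0 value, and in the other retina libraries from 54.5 through 72.4 to 101 CPM. The difference was 0.65 ± 0.10 at CT0 and -0.69 ± 0.05 over the other times, a departure of 1.34 ± 0.11 (edgeR adjusted p = 3.47e-09). The difference was positive at CT0 and negative at each of the other times, from -0.14 at CT4 to -1.50 at CT16.

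NR1D2, a nuclear receptor that represses ARNTL, had 423, 349 and 372 CPM in the pineal gland and 531, 508 and 488 CPM in the retina. The retina stayed higher at every time, but its lead was 0.42 at CT0 and 2.37 at CT12, and the departure was 1.20 ± 0.18 (edgeR adjusted p = 4.15e-05). It was not called against CT4 and CT20 alone (adjusted p = 0.412).

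The cryptochromes did not move as one. CRY1 had 68.2, 73.8 and 70.9 CPM in the pineal gland at CT0 and 162, 153 and 137 CPM in the retina. The other pineal libraries ran from 72.5 through 173 to 280 CPM, so replicates 1 and 3 lay below all of them and replicate 2 just above the lowest. The departure was -0.98 ± 0.07 (edgeR adjusted p = 1.98e-10), and the difference crossed from -1.08 at CT0 to 0.55 at CT12. CRY2 and CRY4 were not called for departure (0.16 ± 0.06, adjusted p = 0.149, and 0.41 ± 0.16, adjusted p = 0.173).

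Among the activators, ARNTL had 14.1, 16.3 and 9.86 CPM in the pineal gland at CT0 against 52.2, 49.7 and 55.1 CPM in the retina. Both tissues were at their lowest, below all 15 of their own other libraries, and the pineal gland fell further, by 2.26 against 1.32 on the log2 scale. The departure was -0.94 ± 0.13 (edgeR adjusted p = 9.01e-06), and the difference at CT4 was as wide as at CT0 (-1.95 and -1.97). CLOCK departed by -0.52 ± 0.09 (adjusted p = 0.000157) and ARNTL2 by -0.37 ± 0.10 (adjusted p = 0.0276). NPAS2, a partner of ARNTL like CLOCK, and the nuclear receptors RORA and RORB, which activate ARNTL, were not called. ARNTL and CLOCK were not called against CT4 and CT20 alone (adjusted p = 0.296 and 0.366), nor was ARNTL2 without pineal CT0 replicate 2 and in 8 other settings. Of 10 output factors and kinases, HLF was called, a bZIP factor that binds D-boxes. It had 130, 120 and 133 CPM in the pineal gland at CT0, above the 48.5 to 82.8 CPM of the other pineal libraries, and departed by 0.60 ± 0.07 (adjusted p = 2.19e-06) while remaining higher in the retina. The kinases CSNK1D, CSNK1E and GSK3B and the ubiquitin ligase part FBXL21 were not called.

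**Figure D2:**
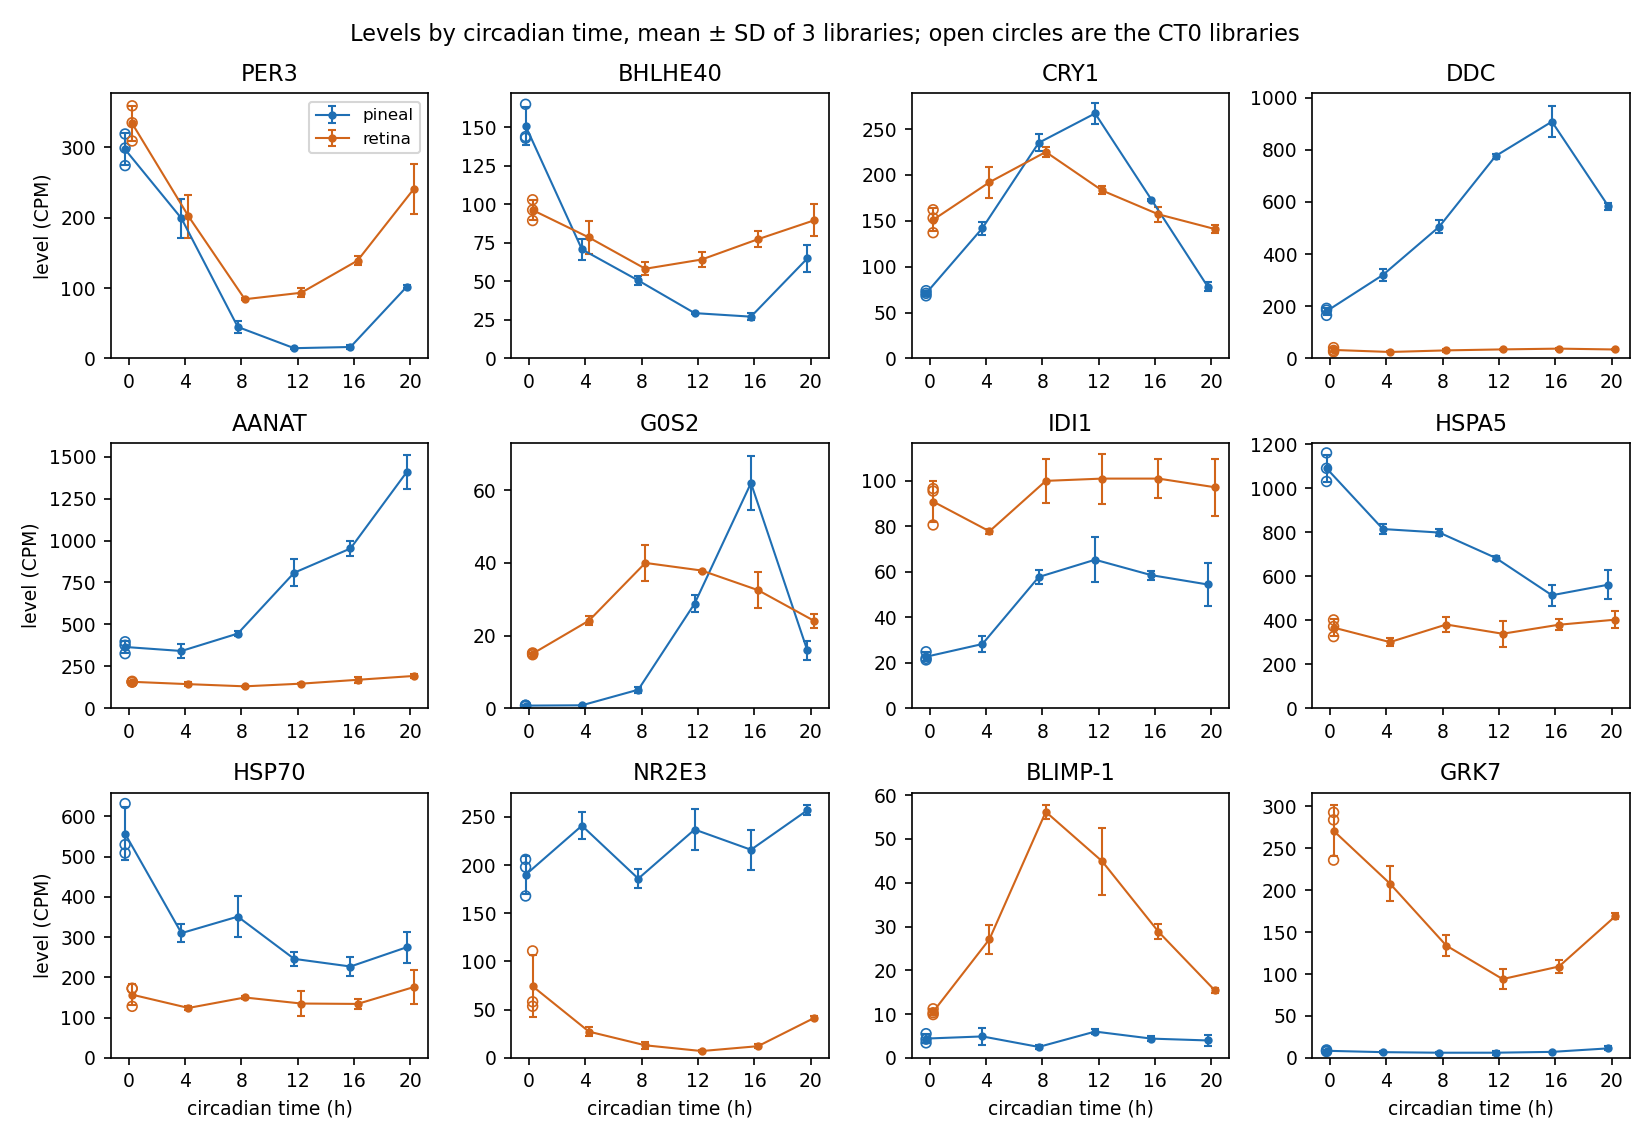
Levels (CPM, vertical axis) of 12 genes by circadian time (h), as mean ± SD of 3 libraries per tissue and time, with the CT0 libraries as open circles. The tissues meet at CT0 in PER3, cross in BHLHE40 and CRY1, and draw together at CT0 in DDC, AANAT and NR2E3.

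Melatonin is made from tryptophan through TPH1, DDC, AANAT and ASMT. The pineal lead was narrower at CT0 in DDC and AANAT. Of the pathway's 9 tested genes with cofactor enzymes, 2 had negative departures and none a positive one, with a median of -0.38, and 8 were higher in the pineal gland at CT0. DDC, the decarboxylase that yields serotonin, had 192, 165 and 185 CPM in the pineal gland and 25.4, 30.7 and 41.3 CPM in the retina at CT0. Its pineal level at the other times ran from 292 through 581 to 978 CPM, above every CT0 library, while the retina stayed between 22.9 and 41 CPM. The pineal lead was 2.48 ± 0.12 at CT0 and 4.19 ± 0.06 over the other times, a departure of -1.70 ± 0.13 (edgeR adjusted p = 6.72e-10).

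AANAT, whose activity times melatonin release, had 396, 325 and 375 CPM in the pineal gland and 155, 156 and 160 CPM in the retina at CT0. The lead was 1.21 at CT0, 1.24 at CT4 and 2.87 at CT20, and the departure was -0.95 ± 0.10 (edgeR adjusted p = 1.15e-07). The pineal gland at CT0 was lower than its other times by 0.93, and the retina did not shift (0.02 ± 0.07, adjusted p = 0.992). TPH1, the first enzyme, had 7700, 5680 and 7040 CPM in the pineal gland and 43.7, 59.6 and 34.2 CPM in the retina. Both tissues fell at CT0, by 1.58 and 0.96, and the departure of -0.62 ± 0.22 did not pass (adjusted p = 0.106). Counts summed per gene, and the fit without retina CT0 replicate 3, each gave 3 negative departures in this list. ASMT, the last enzyme, rose in the pineal gland at CT0 (3830, 3180 and 3910 CPM, 0.51 ± 0.09, adjusted p = 7.91e-05), and its departure was 0.17 ± 0.14 (adjusted p = 0.655). GCH1, which starts the synthesis of the cofactor tetrahydrobiopterin, fell by 0.81 in the pineal gland with a departure of -0.38 ± 0.19 (adjusted p = 0.343).

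Of 25 tested genes of adrenergic, VIP, PACAP, melatonin and cyclic AMP signalling, 2 departed upwards and 1 downwards, with a median of 0.07. ADCY1, a calcium-stimulated adenylyl cyclase, had 21, 19.5 and 26.8 CPM in the pineal gland at CT0, above the other 15 pineal libraries (11.7 to 19.2 CPM), and departed by 0.64 ± 0.13 (edgeR adjusted p = 0.0012). PDE10A, which breaks down cyclic nucleotides, had 36.4, 26.2 and 36.9 CPM in the pineal gland against 15.2, 16.2 and 18.9 CPM in the retina. Its departure was 0.85 ± 0.18 (adjusted p = 0.00305), and the tissues were not called different over the other times (0.14 ± 0.07). PRKAR2B, a regulatory subunit of protein kinase A, departed by -0.39 ± 0.12 (adjusted p = 0.044), a call lost in 20 of 52 alternative settings.

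In edgeR's fit of all 36 libraries by transcript, genes of light detection departed downwards where they departed. The cone genes did so through the retina and most others through the pineal gland. All 11 tested cone genes were higher in the retina at CT0. Of these, 3 had negative departures, with a list median of 0.21, and none had a positive one. Other settings also called positive departures of cone genes. DESeq2 gave 4 positive and 3 negative, limma on log2(FPKM + 0.1) 2 and 3, and counts summed per gene 1 and 3. GRK7, the kinase of cone opsins, had 236, 293 and 284 CPM in the retina at CT0, above its 84.5 to 229 CPM at the other times, and 8.23, 7.53 and 9.46 CPM in the pineal gland. The retina rose by 0.99 ± 0.10, the pineal shift was 0.21 ± 0.15, and the departure was -0.78 ± 0.18 (edgeR adjusted p = 0.00714). CNGA3, the cone channel subunit, had 212, 251 and 212 CPM in the retina and 114, 139 and 143 CPM in the pineal gland, and departed by -0.61 ± 0.11 (adjusted p = 0.000724). SLC24A2, the cone ion exchanger, had 204, 260 and 234 CPM in the retina and departed by -0.70 ± 0.10 (adjusted p = 2.96e-05). None of the 3 was called against CT4 and CT20 alone. ARR3, the cone arrestin, rose at CT0 in both tissues, by 1.28 in the pineal gland and by 0.97 in the retina, and did not depart (0.30 ± 0.16, adjusted p = 0.364).

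Of 11 tested genes on the list of rod phototransduction, not all of them particular to rods, CNGA1 and RGS9 departed, both negatively, with a list median of -0.32. CNGA1, the rod channel subunit, had 8.36, 6.53 and 6.93 CPM in the pineal gland at CT0, below all of the other pineal libraries (17.1 to 50.9 CPM). In the retina it had 16.3, 16.5 and 22.9 CPM. Over the other times the tissues were not called different (0.18 ± 0.09, adjusted p = 0.0599), at CT0 the retina was higher (-1.34 ± 0.22), and the departure was -1.53 ± 0.23 (edgeR adjusted p = 6.13e-05). RGS9, which speeds the shut-off of transducin, rose in the retina by 0.54 ± 0.08 with a departure of -0.52 ± 0.13 (edgeR adjusted p = 0.0167). Its call was lost in 5 of 52 alternative settings, among them the fits without pineal CT0 replicate 1 or 3, and its departure went to -0.21. PDE6B, a subunit of the rod phosphodiesterase, rose in both tissues, by 1.69 in the pineal gland and 1.85 in the retina, and its departure was -0.16 ± 0.22 (adjusted p = 0.838).

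Among 7 non-visual opsins, RRH and OPN4 had negative departures (-0.55 ± 0.14 and -0.52 ± 0.13, adjusted p = 0.0135 and 0.0154), and the median was -0.55. OPN4, a melanopsin, fell at CT0 in both tissues, by 1.12 in the pineal gland and by 0.60 in the retina. Neither was called without pineal CT0 replicate 2. Of 19 visual cycle and pigment genes, the retinol dehydrogenases RDH12 and RDH5 had negative departures (-0.99 ± 0.16 and -0.90 ± 0.22). The call of RDH12 held in all 52 alternative settings. That of RDH5 was lost in 5, among them counts summed per gene and the fit without pineal CT0 replicate 1, and its departure went to -0.26. RDH12 had 43.5, 41 and 32.9 CPM in the pineal gland at CT0, below the 47.9 to 97.9 CPM of its other times, and 475, 505 and 531 CPM in the retina. The pigment markers TYR and TYRP1, high in retina CT0 replicate 3, were not called for departure.

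Of 15 photoreceptor and pinealocyte transcription factors tested, 2 had positive and 5 negative departures, with a median of -0.13. Retina CT0 was called against its other times in 2 of them, NR2E3 and BLIMP-1. NR2E3, a nuclear receptor that in mouse represses cone genes in rods, had 53.5, 58.2 and 111 CPM in the retina at CT0. The other 15 retina libraries ran from 5.54 through 14.1 to 43.7 CPM, so all 3 CT0 values lay above them. The pineal gland had 206, 168 and 198 CPM at CT0 and 175 through 231 to 261 CPM at the other times. The pineal lead shrank from 3.77 ± 0.09 over the other times to 1.36 ± 0.18, a departure of -2.41 ± 0.20 (edgeR adjusted p = 3.47e-09), with a retina shift of 2.16 ± 0.14 and a pineal shift of -0.25 ± 0.13. Replicate 3, the highest in NR2E3, was also the retina CT0 library high in TYRP1. The summed level of 19 visual cycle and pigment epithelium genes was 6770, 7280 and 8700 CPM in the retina CT0 libraries and 3410 through 4220 to 7200 CPM in the other retina libraries. RDH12 gave 3445, 3670 and 3229 counts of it at CT0 and TYRP1 685, 681 and 1692. The sum is therefore not of pigment epithelium transcripts alone. The part of these genes in the result was not tested beyond leaving replicate 3 out, which kept NR2E3 called.

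BLIMP-1, a repressor that in mouse secures photoreceptor over bipolar cell fate, had 11.2, 10.3 and 9.88 CPM in the retina at CT0, below all of its 15 other libraries there (14.7 through 30.5 to 57.9 CPM). In the pineal gland it had 3.42, 5.52 and 4.26 CPM, within the range of the other times. The departure was 1.65 ± 0.24 (edgeR adjusted p = 2.92e-05), with a retina shift of -1.58 ± 0.17 and a pineal shift of 0.07 ± 0.18. Against CT4 and CT20 alone it was 0.96 and not called (adjusted p = 0.0674). In the pineal gland, MEF2D, LHX3, RXRG and OTX2 were lower at CT0 and ISL1 was higher, each departing in the same direction. MEF2D, a partner of CRX in mouse photoreceptors, departed by -0.80 ± 0.11 (edgeR adjusted p = 1.18e-05), RXRG by -0.49 and LHX3 by -0.54. The call of LHX3 was lost in 4 of 52 alternative settings, and its departure went to -0.2. OTX2, with a departure of -0.28 ± 0.08, was not called in 15 of 52 alternative settings.

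**Figure D3:**
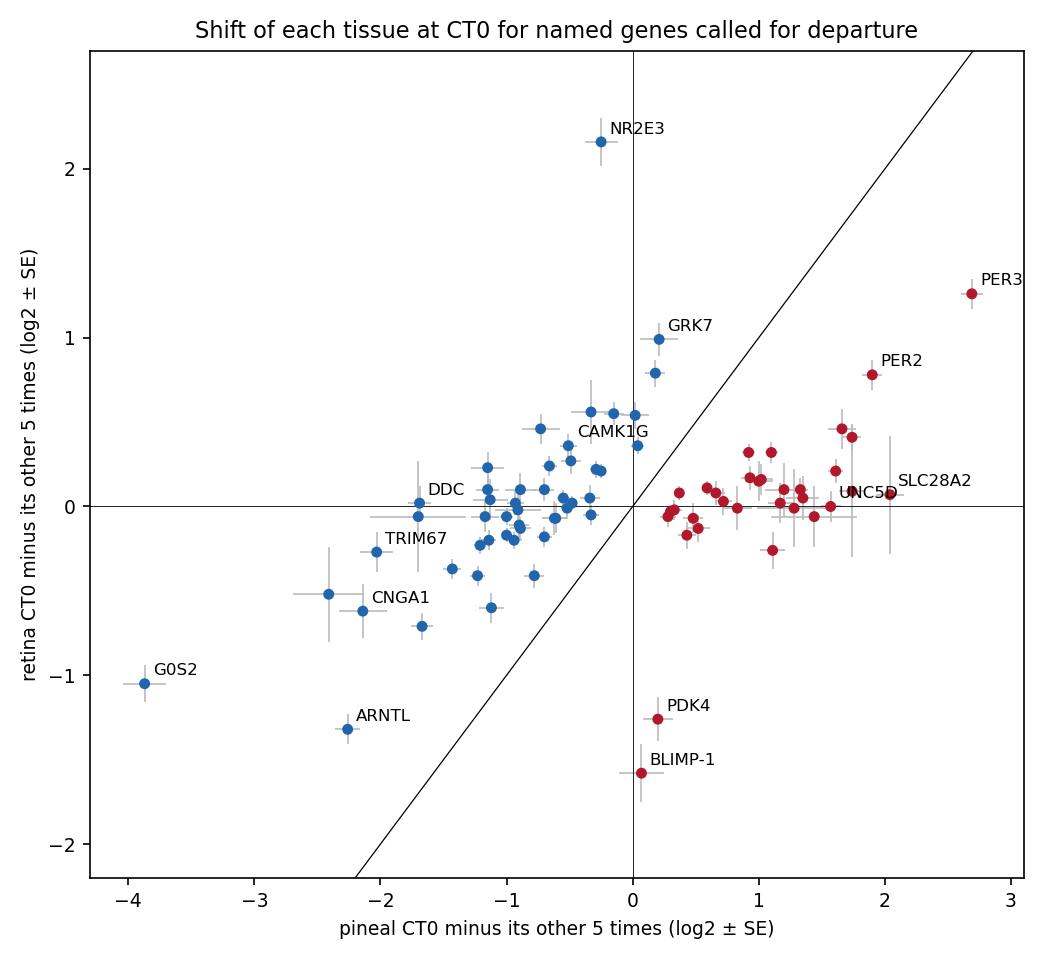
Shift of the retina at CT0 against its other 5 times (vertical axis, log2 ± SE) and of the pineal gland (horizontal axis, log2 ± SE), for the 81 named genes called for departure whose SEs are under 0.4. Red is positive and blue negative departure, and the diagonal marks equal shifts. Most points lie along the horizontal line of no retina shift, and NR2E3, GRK7, PDK4 and BLIMP-1 lie near the vertical line of no pineal shift.

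Cholesterol synthesis formed the list with the most departures in one direction. Of 16 tested genes, 12 had negative departures and none a positive one, with a median of -0.57. Pineal CT0 was called lower than its other times in 15 of the 16, the exception being MVD. Retina CT0 was called lower in none and higher in 1, MVD. IDI1, which makes the isoprenoid building block, had 21.2, 24.8 and 21.9 CPM in the pineal gland at CT0, below its 25.1 to 74.4 CPM at the other times. In the retina it had 80.6, 96.6 and 95.5 CPM, within its 77 to 113 CPM at the other times. The departure was -1.10 ± 0.14 (edgeR adjusted p = 3.36e-06).

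CYP51A1, a sterol demethylase, departed by -0.80 ± 0.11 and FDFT1, which makes squalene, by -0.76 ± 0.10 (adjusted p = 1.17e-05 and 9.87e-06). FDFT1 was not called against CT4 and CT20 alone (edgeR adjusted p = 0.126). SREBF2, the transcription factor of the pathway, had 109, 126 and 125 CPM in the pineal gland against 183, 195 and 196 CPM in the retina and departed by -0.55 ± 0.09 (adjusted p = 9.78e-05). MVD, LSS and INSIG1 were not called, with departures of -0.38, -0.49 and -0.58. At CT0, 14 of the 16 were higher in the retina and none in the pineal gland. Over the other times 10 were higher in the retina and 6 in the pineal gland. The count of negative departures was 8 without retina CT0 replicate 3 and 4 against CT4 and CT20 alone, and stayed at 12 without pineal CT0 replicate 2 and without the 3 pineal libraries low in TTR.

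Of 19 genes of fatty acid synthesis and lipid droplets, 3 had negative departures and 1 a positive one, with a median of -0.15. G0S2, an inhibitor of the lipase that breaks down triglycerides, had 0.507, 0.753 and 0.8 CPM in the pineal gland at CT0 and 15.2, 14.7 and 15 CPM in the retina. Both tissues fell, the pineal gland by 3.87 ± 0.17 and the retina by 1.05 ± 0.11, and the departure of -2.82 ± 0.20 (edgeR adjusted p = 3.37e-10) held in all 52 alternative settings. On log2 CPM with a prior count of 2, the difference was -3.99 at CT0, -4.53 at CT4 and 0.93 at CT16. ELOVL2, which elongates polyunsaturated fatty acids, had 21.7, 23.2 and 22.9 CPM in the pineal gland and 42.9, 43.2 and 43.5 CPM in the retina. Both tissues were below all of their own other libraries, and the departure was -0.96 ± 0.11 (adjusted p = 8.46e-07), which was not called against CT4 and CT20 alone (-0.44, adjusted p = 0.0674). FASN departed by -0.33 ± 0.08. CPT1A, which carries fatty acids into mitochondria, departed by 0.60 ± 0.10 (adjusted p = 0.000245), with 186, 182 and 175 CPM in the pineal gland and 38.2, 34.3 and 37.4 CPM in the retina. It was not called against CT4 and CT20 alone (edgeR adjusted p = 0.112).

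In glycolysis and pyruvate use, 2 of 20 genes had positive and 3 negative departures, with a median of -0.01. PDK4, a kinase that shuts off pyruvate dehydrogenase, shifted in the retina. It had 22.9, 22.8 and 24 CPM there at CT0, below its 27.3 to 90.5 CPM at the other times, and 33.1, 32.1 and 33.6 CPM in the pineal gland. The pineal gland was higher at CT0 by 0.50 ± 0.16 and lower over the other times by 0.95 ± 0.07, a departure of 1.46 ± 0.17 (edgeR adjusted p = 1.14e-06). LDHA, lactate dehydrogenase, departed by -0.50 ± 0.07 with 760, 674 and 714 CPM in the pineal gland and 3620, 3430 and 3210 CPM in the retina. It was not called against CT4 and CT20 alone (edgeR adjusted p = 0.0674).

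Of 17 tested cytosolic heat shock and cold inducible genes, 7 had positive departures and 1 a negative one, with a median of 0.27. Pineal CT0 was called higher than its other times in 11 and the retina in none. HSPH1, a large chaperone, had 464, 422 and 476 CPM in the pineal gland at CT0, above its 173 to 293 CPM at the other times. In the retina it had 252, 249 and 177 CPM, within its 163 to 280 CPM. The departure was 0.86 ± 0.13 (edgeR adjusted p = 7.99e-05). HSP70 departed by 0.86 ± 0.17 (adjusted p = 0.00155), with 530, 509 and 632 CPM in the pineal gland and 173, 172 and 128 CPM in the retina.

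The cochaperone BAG3 and the chaperone HSP90AA1 departed by 0.58 ± 0.14 and 0.53 ± 0.12. CIRBP, which is induced by cold, had the negative departure, -0.22 ± 0.06 (adjusted p = 0.0403). The positive count was 4 without pineal CT0 replicate 3 and 3 without retina CT0 replicate 3, the lowest of the 3 retina CT0 libraries in HSPH1 and HSP70. Against CT4 and CT20 alone it was 3.

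Of 19 chaperones and stress genes of the endoplasmic reticulum, 7 had positive departures and none a negative one, with a median of 0.15. HSPA5, the main chaperone of this compartment, had 1090, 1160 and 1030 CPM in the pineal gland at CT0, above its 460 to 842 CPM at the other times. The retina had 371, 401 and 325 CPM, within its range, and the departure was 0.69 ± 0.11 (edgeR adjusted p = 9.65e-05). HERPUD1, a part of the degradation machinery, departed by 0.55 ± 0.12 (adjusted p = 0.00574) and HSP90B1 by 0.33 ± 0.08. The other 4, PDIA6, SDF2L1, XBP1 and SEL1L, departed by 0.19 to 0.32. The count of 7 fell to 2 without pineal CT0 replicate 2, to 4 without pineal CT0 replicate 1, to 2, 4 and 1 without retina CT0 replicates 1, 2 and 3, and to 1 against CT4 and CT20 alone.

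**Figure D4:**
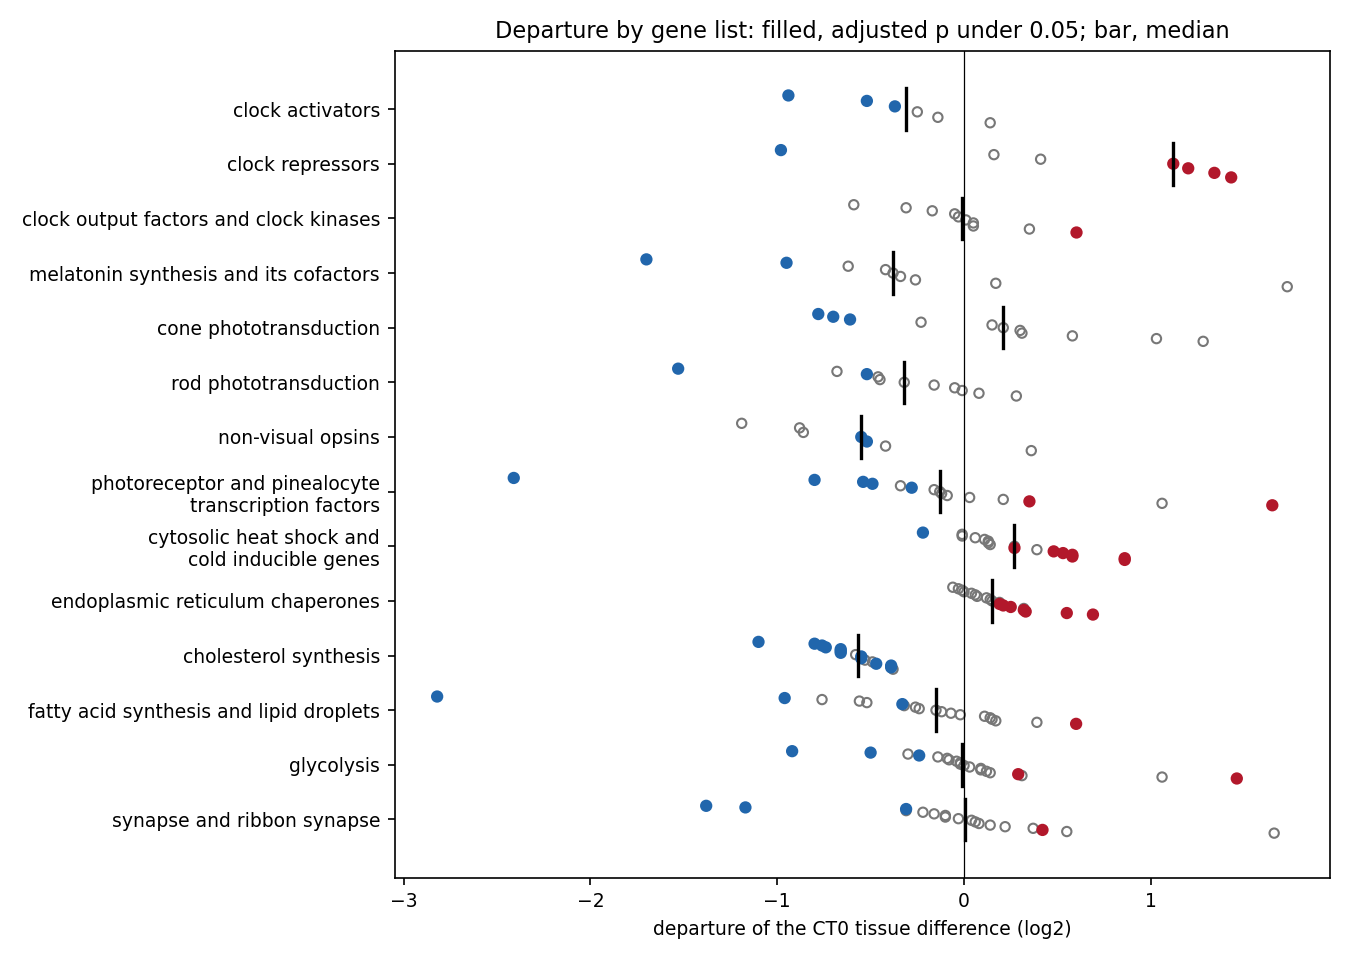
Departure of the CT0 tissue difference (horizontal axis, log2) for the tested members of 14 gene lists. Filled points passed an adjusted p of 0.05, open points did not, and black bars are list medians. Cholesterol synthesis lies left of 0 and most chaperones lie right of it, while the clock repressors split, with CRY1 alone on the left among those called.

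In 81 departures the tissue difference was called in opposite directions at CT0 and over the other times. This pattern was not counted over all transcripts tested, and choosing departures favours it, so the number only describes. The departures of this kind with the smallest p are given here. MDGA1, a membrane protein of synapses, had 231, 216 and 282 CPM in the pineal gland at CT0 and 211, 196 and 198 CPM in the retina. Over the other times it was lower in the pineal gland (33.2 through 80.3 to 195 CPM) than in the retina (157 through 177 to 190 CPM) by 1.13 ± 0.04. The departure was 1.40 ± 0.09 (edgeR adjusted p = 1.33e-10), and the pineal gland was still ahead at CT4, by 0.10.

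RCAN2, an inhibitor of calcineurin, had 130, 115 and 141 CPM in the pineal gland at CT0 and 103, 92.6 and 96.6 CPM in the retina, and departed by 1.23 ± 0.09. UNC5D, a netrin receptor, had 82, 74.2 and 87.2 CPM in the pineal gland, above its 18.2 to 44.6 CPM at the other times, and 33.9, 28.8 and 30.1 CPM in the retina. It departed by 1.57 ± 0.12 (adjusted p = 1.12e-09). The potassium channel partner KCNIP1 departed by 1.37 ± 0.15, and MSL1, a part of a histone acetyltransferase complex, by 0.78 ± 0.08 with a difference that was positive at CT0 alone.

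In the other direction, CLSTN3, a synaptic cadherin relative, had 302, 305 and 300 CPM in the pineal gland at CT0, below its 356 to 855 CPM at the other times, and 513, 493 and 506 CPM in the retina. The retina led by 0.74 ± 0.05 at CT0 and the pineal gland by 0.10 ± 0.02 over the other times, a departure of -0.84 ± 0.05 (edgeR adjusted p = 3.22e-11). TRIM67, a ubiquitin ligase of neurons, had 19.3, 13.9 and 19.9 CPM in the pineal gland and 34.5, 35.6 and 37.4 CPM in the retina, and departed by -1.77 ± 0.17 (adjusted p = 6.14e-08). PPFIA4, a presynaptic scaffold protein, and TTC8, a part of the cilium-trafficking BBSome, each departed by -0.94. The glycosyltransferases GALNT9 and MGAT5 departed by -1.25 ± 0.12 and -0.50 ± 0.05, and MGAT5 had 141 CPM in each of the 3 pineal libraries.

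**Figure D5:**
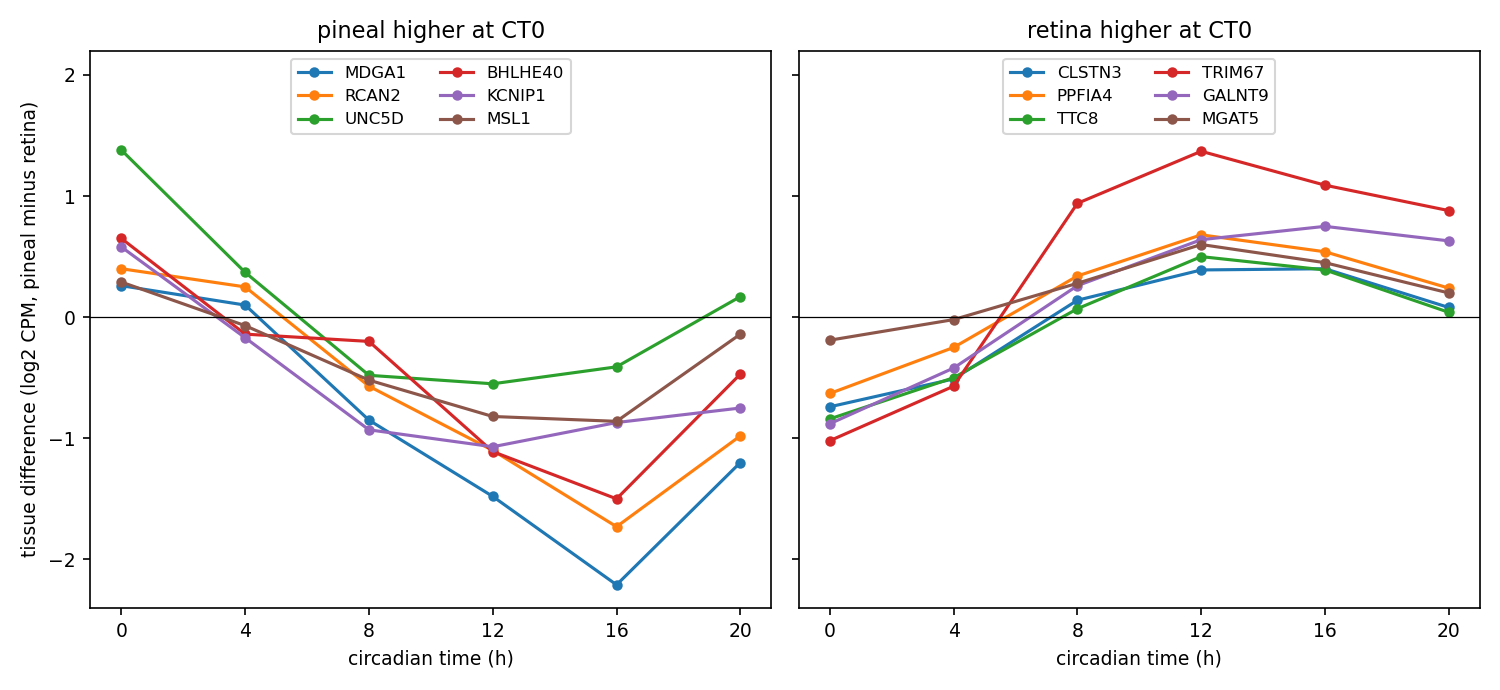
Tissue difference (vertical axis, log2 CPM with a prior count of 2, pineal minus retina) by circadian time (h) for 6 genes higher in the pineal gland at CT0 (left) and 6 higher in the retina at CT0 (right), each called in the opposite direction over the other 5 times. In the left panel MDGA1, RCAN2 and UNC5D are still above 0 at CT4, and UNC5D is again at CT20. In the right panel all 6 are below 0 at CT4 and above it from CT8 on.

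A tissue difference was called at CT0 and not over the other times in 75 departures, 29 positive and 46 negative. Neither this pattern nor its reverse was counted over all transcripts tested, so these numbers too only describe. USP8, a deubiquitinating enzyme, had 367, 326 and 369 CPM in the pineal gland at CT0 and 247, 249 and 250 CPM in the retina, a difference of 0.51 ± 0.06. Over the other times the difference was 0.03 ± 0.02 (adjusted p = 0.276), and the departure was 0.48 ± 0.06 (edgeR adjusted p = 3.85e-06). The cation channel TRPC4 (1.15 ± 0.16), RAP1GAP2, which turns off the small GTPase RAP1 (0.76 ± 0.10), the chaperone HSPA8 (0.58 ± 0.10) and the splicing factor SRSF3 (0.33 ± 0.06) departed likewise. SH3GLB2, an endophilin, had 50.9, 53 and 47.8 CPM in the pineal gland against 110, 110 and 103 CPM in the retina. Its difference was -1.09 ± 0.08 at CT0 and -0.03 ± 0.03 over the other times, a departure of -1.06 ± 0.08 (adjusted p = 1.83e-09), with -1.05 at CT4. The potassium channel of internal membranes TMEM38A (-0.83 ± 0.08), FRMD4A (-0.73 ± 0.07) and NELL1 (-0.60 ± 0.07), besides ELOVL2 above, departed in the same way. Of these TMEM38A was not called against CT4 and CT20 alone (-0.28, adjusted p = 0.19). The reverse, a difference called over the other times and not at CT0, held for 63 positive and 72 negative departures, among them PER3, PER2 and LHX3.

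In 13 departures pineal gland and retina were both called at CT0, in opposite directions, a pattern that was not counted over all transcripts tested. CAMK1G, a calcium-dependent kinase, had 316, 260 and 318 CPM in the pineal gland, lower by 0.51 than at its other times, and 131, 125 and 120 CPM in the retina, higher by 0.36. The departure was -0.87 ± 0.09 (edgeR adjusted p = 3.45e-07). SLC1A7, a glutamate transporter of photoreceptors and bipolar cells, fell by 0.66 in the pineal gland and rose by 0.24 in the retina, a departure of -0.89 ± 0.09. GRTP1, which belongs to the TBC family of GTPase activators, had 2.79, 2.51 and 2.27 CPM in the pineal gland and 73.7, 76.8 and 62.7 CPM in the retina, with shifts of -0.73 and 0.46. LRFN2, a synaptic adhesion protein, SEPT9, a septin, and TNRC6C, of the microRNA silencing complex, moved in the same pair of directions by 0.21 to 0.49. The departures of CAMK1G, SEPT9 and TNRC6C were not called against CT4 and CT20 alone (edgeR adjusted p = 0.0815, 0.102 and 0.23).

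Many of the largest departures were of transcripts near 0 in one tissue, and several rest on 1 library. Others, NR2E3 and DDC above among them, were not near 0 in either tissue. ASL2, the delta-crystallin and argininosuccinate lyase gene, had 0.689, 0.55 and 0.823 CPM in the retina at CT0 and 0 to 0.485 CPM at the other times, with a median of 0, and 19.4, 12.4 and 20.9 CPM in the pineal gland. Its departure of -4.72 ± 0.75 (edgeR adjusted p = 0.000354) was not called with counts summed per gene, and a near-identical crystallin gene makes its counts uncertain. AGTR1, an angiotensin receptor, had 4.43, 6.78 and 8.66 CPM in the pineal gland at CT0 and 8.42 through 23.8 to 45.6 CPM at the other times, and departed by -3.13 ± 0.75 (adjusted p = 0.00881). Its retina CT0 libraries held 6, 1 and 4 counts, and the call was lost without retina CT0 replicate 1 or 3 and against CT4 and CT20 alone. GRID2IP, a scaffold protein, had 31, 3.01 and 25.7 CPM in the pineal gland at CT0 and 21 through 173 to 281 CPM at the other times, and its departure of -2.80 ± 0.56 held in all 52 alternative settings. IGFBP1, an insulin-like growth factor binding protein, had 1.65, 2.01 and 1.6 CPM in the pineal gland at CT0 against 2.58 to 25.5 CPM at its other times, a departure of -1.88 ± 0.39 that was not called against CT4 and CT20 alone (-1.02, adjusted p = 0.345).

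SLC28A2, a nucleoside transporter, had 144, 177 and 149 CPM in the pineal gland at CT0, above the 16.6 to 104 CPM of its other times, and under 1 CPM in each retina CT0 library. Its departure of 1.97 ± 0.35 (edgeR adjusted p = 0.000465) held in all 52 alternative settings. CPNE7, a copine, had 12.5, 20.6 and 17.7 CPM in the pineal gland and 1.93, 0.963 and 2.14 CPM in the retina. It departed by 3.05 ± 0.86 (adjusted p = 0.0308), with a difference of 3.17 at CT0, 3.25 at CT4 and -1.88 at CT16, and was not called in 11 of 52 settings.

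Another 3 of the 10 largest positive departures came with pineal CT0 replicate 2. TAC1, a neuropeptide precursor, had 0.76, 14.4 and 0.933 CPM in the pineal gland, PAK6, a kinase, 0, 5.4 and 0.4 CPM, and CDH9, a cadherin, 0.127, 4.77 and 0.133 CPM. Without that library the departures of TAC1 and PAK6 changed sign and CDH9 was not called. CDH9 had 1, 38 and 1 counts in pineal CT0 replicates 1, 2 and 3, so its level there came mostly from replicate 2. Its call was also weak, and was lost in 34 of 52 alternative settings. Among them were the fits without each retina CT0 library in turn. Over all 52 settings the departure of CDH9 ran from 0.13 to 4.82. SLITRK1 and NETO1, both synaptic membrane proteins, had the same pattern, with 12.4 and 5.02 CPM in replicate 2 and at most 2.03 and 1.33 CPM in the others. Neither was called without replicate 2, and SLITRK1 was not called in 42 of 52 settings. SLITRK1 and GAD67 were chosen after their values were seen. POU4F2, a ganglion cell factor, had 0.507, 0 and 0 CPM in the pineal gland at CT0, and its departure changed sign without replicate 1. PTPRC, the leukocyte antigen CD45, had 49.2, 89.1 and 64.1 CPM in the pineal gland, within its range at the other times, and 0.413, 0.55 and 0 CPM in the retina, below its median of 2.19 CPM there. Its departure of 2.72 ± 0.78 was lost in 12 of 52 settings, among them counts summed per gene and the fits without pineal CT0 replicate 2 or without any 1 of the 3 retina CT0 libraries, and went down to 0.27.

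Other transcripts of neurons and synapses stayed called without that library. CALB2, the calcium-binding protein calretinin, had 129, 127 and 114 CPM in the pineal gland at CT0 and 24.1 through 38.9 to 116 CPM at the other times, and 313, 296 and 280 CPM in the retina, and departed by 1.30 ± 0.19 (edgeR adjusted p = 3.08e-05). The glycine transporter SLC6A9 (-1.38 ± 0.16) and CPLX1, complexin (-1.17 ± 0.18), departed negatively, and CTBP2, which includes the ribbon protein RIBEYE, by -0.31 ± 0.07 with a retina rise of 0.36. Against CT4 and CT20 alone SLC6A9 was not called (edgeR adjusted p = 0.0863). CTBP2 had 133, 140 and 153 CPM in the retina at CT0, against 95 to 135 CPM at the other times. Of 18 synapse genes 1 had a positive and 3 a negative departure, with a median of 0. NR4A3, an orphan nuclear receptor induced by activity, had 12, 10.3 and 11.6 CPM in the pineal gland at CT0, above its 3.57 to 6.31 CPM at the other times, and departed by 1.10 ± 0.22 (adjusted p = 0.00182). NR4A2 departed by 1.29 ± 0.37, a call lost in 11 of 52 alternative settings. Among them were the fits without pineal CT0 replicate 2 or 3 and those without each retina CT0 library in turn. The other 10 of 12 immediate early genes, EGR1 and JUN among them, were not called.

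No member was called for departure in the lists of Müller glia and astrocytes, myelin, endothelium, fibroblasts, macrophages, blood cells, striated muscle, cell division, neurosteroid synthesis and mitochondrially encoded genes. These lists had from 5 to 19 tested members each. With 5.58% of all transcripts called, a list of that size without a call is near the general share and says little. Choroid plexus and ependyma had 1 called of 12 tested, OTX2, and the summed level of its list was 24700 to 32600 CPM in the pineal CT0 libraries and 1570 to 45400 CPM at the other times. The summed level of ganglion cell markers in the pineal gland was 870 to 936 CPM at CT0 and 564 to 937 CPM at the other times. Of 11 tested, 6 were called higher at CT0, and POU4F2 and ISL1 were called for departure. ISL1 is also on the list of photoreceptor and pinealocyte factors and had 2376, 2205 and 2423 counts in the pineal CT0 libraries, so the sum is not of ganglion cell transcripts alone. The sum of amacrine and horizontal cell markers in the pineal gland was 182 to 238 CPM at CT0 and 119 to 254 CPM at the other times, with CALB2 and SLC6A9 called of 13. In pineal CT0 replicate 2 the amacrine sum was the highest of the 3. The summed level of striated muscle markers was 186 to 285 CPM in the pineal CT0 libraries and 351 to 722 CPM in the others, most of it from ACTC1, cardiac actin, which fell in the pineal gland at CT0 (-1.29, adjusted p = 1.1e-05) and did not depart (-0.76 ± 0.38, adjusted p = 0.342). Of 7 bipolar cell markers NETO1 and OTX2 departed, of 14 lymphocyte markers PTPRC, of 6 lens markers ASL2, and of 9 dopamine genes MAOA, the monoamine oxidase (-0.89 ± 0.24, adjusted p = 0.0269, lost in 13 of 52 settings). The summed lymphocyte markers were at 1630, 2880 and 2100 CPM in the pineal CT0 libraries and at 896 to 3150 CPM at the other times. The part of these cells in the departures was not tested.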

How the data were processed

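The series holds 36 RNA-seq libraries of chicken pineal gland and retina. TRIzol extraction, RNeasy clean-up and a standard Illumina preparation were used, per the labels' protocols. Trimmomatic, TopHat and Cufflinks appear in the submitters' processing notes, with neither version nor role. Genome build and strandedness of counting: not given in the sources used here. The authors deposited estimated counts for 23352 Ensembl transcripts, which need not be whole (68.1% are) and were rounded here. FPKM values deposited beside them, scaled for length and depth by the authors, served only as an alternative. Counts of transcripts of 1 gene were split by estimation, which leaves paralogs and overlapping genes uncertain. Symbols are those in the deposited table, 186 of them replaced by RefSeq symbols where the RefSeq identifier disagreed. No promoter or protein sequence was used here.

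A model of 12 group means was fitted with edgeR 4.0.16 in R 4.3.3 (TMM, filterByExpr by group, quasi-likelihood F test). The departure is the tissue difference at CT0 minus the mean of the 5 other differences, so the departure and the CT0 difference share libraries. The SE is the difference over the square root of F. Figures used Python 3.11.15 with pandas 2.3.3, numpy 2.4.6 and matplotlib 3.10.9. Floors are 3 counts over the 3 libraries of a group, and intervals are 95% Clopper-Pearson from scipy 1.17.1, covering counting error only. The fit was tested on simulated counts. Replicates of a CT0 group differed by 5.63 to 10.1 times the chi-square of sampling noise, so none was a repeat deposit.

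The members, the 36 gene lists and the tests were chosen with earlier results of these data known. Where a symbol had several transcripts, that with most counts was taken. The rule for naming took all clock and melatonin genes, the 10 largest departures in each direction (at least 5 CPM in either tissue), from every other list no more than 3 called members, up to 6 of smallest p per direction whose tissue difference turned, up to 5 per direction called at CT0 and not over the other times, up to 6 with opposite shifts of the tissues, the 5 widest CT0 differences in each direction (at least 10 CPM) and the tissue markers. List members beyond these, and FNDC9, GAD67 and SLITRK1, were named after their values were seen. Alternatives were DESeq2 1.42.0, its size factors, no filter and limma 3.58.1 on log2(FPKM + 0.1 or 1). Others were sums per gene, a replicate block, each library left out and other reference times. Added after seeing the data were the reference of CT4 and CT20 alone and the fit without the pineal libraries low in TTR. Gene sums without pineal CT0 replicate 2 were also added then. Some genes that this rule takes are not reported here.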

Additional observations from a re-analysis of the deposited data

Results flagged for a closer look

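The shift at CT0 against the other 5 times differed between pineal gland and retina, by edgeR's test of that difference itself, for each of the following named genes. Each value is the departure, the pineal shift minus the retina shift, on the log2 scale. In 40 genes it was positive: CDH9 (3.66), CPNE7 (3.05), PAK6 (2.80), POU4F2 (2.78), PTPRC (2.72), TAC1 (2.62), CACNG4 (2.39), RGS8 (2.09), SLC28A2 (1.97), BLIMP-1 (1.65), UNC5D (1.57), NETO1 (1.51), PDK4 (1.46), PER3 (1.43), MDGA1 (1.40), KCNIP1 (1.37), BHLHE40 (1.34), CALB2 (1.30), NR4A2 (1.29), RCAN2 (1.23), NR1D2 (1.20), TRPC4 (1.15), PER2 (1.12), NR4A3 (1.10), HSPH1 (0.86), HSP70 (0.86), PDE10A (0.85), MSL1 (0.78), RAP1GAP2 (0.76), HSPA5 (0.69), ADCY1 (0.64), CPT1A (0.60), HLF (0.60), HSPA8 (0.58), HERPUD1 (0.55), USP8 (0.48), ISL1 (0.35), HSP90B1 (0.33), SRSF3 (0.33), PGK1 (0.29). In 52 it was negative: ASL2 (-4.72), AGTR1 (-3.13), G0S2 (-2.82), GRID2IP (-2.80), FADS6 (-2.55), NR2E3 (-2.41), IGFBP1 (-1.88), TRIM67 (-1.77), DDC (-1.70), FST (-1.64), CNGA1 (-1.53), SLC6A9 (-1.38), GALNT9 (-1.25), GRTP1 (-1.19), CPLX1 (-1.17), IDI1 (-1.10), SH3GLB2 (-1.06), RDH12 (-0.99), CRY1 (-0.98), ELOVL2 (-0.96), AANAT (-0.95), ARNTL (-0.94), PPFIA4 (-0.94), TTC8 (-0.94), RDH5 (-0.90), MAOA (-0.89), SLC1A7 (-0.89), CAMK1G (-0.87), CLSTN3 (-0.84), TMEM38A (-0.83), CYP51A1 (-0.80), MEF2D (-0.80), GRK7 (-0.78), FDFT1 (-0.76), LRFN2 (-0.76), FRMD4A (-0.73), SLC24A2 (-0.70), CNGA3 (-0.61), NELL1 (-0.60), RRH (-0.55), LHX3 (-0.54), RGS9 (-0.52), OPN4 (-0.52), CLOCK (-0.52), SEPT9 (-0.50), MGAT5 (-0.50), LDHA (-0.50), TNRC6C (-0.46), PRKAR2B (-0.39), ARNTL2 (-0.37), CTBP2 (-0.31), OTX2 (-0.28). The values of CDH9, PAK6, TAC1 and NETO1 came with pineal CT0 replicate 2, which was higher in them than every other pineal library, and the part of that library's neuronal transcripts in them was not tested beyond leaving it out. CDH9, RGS8, CACNG4 and FST were not called in 34, 33, 14 and 30 of 52 alternative settings, the fit without pineal CT0 replicate 2 among them for each. RGS8, with 0, 11 and 4 counts in the pineal CT0 libraries, went down to 0.56, CACNG4 to 0.41 and FST to -0.87. FADS6, with 2, 0 and 1 counts there, went to -1.08 and was not called in 4 of 52 settings. The fits without pineal CT0 replicate 2 or 3 were among these. The genes were named partly for this same difference, so their number says nothing of how common it is.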

How the results depend on the processing

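The departure counts of 387 and 552 became 114 and 145 against CT4 and CT20 alone, and the cause was not tested. Leaving out 1 library at a time gave 228 to 394 positive (228 without retina CT0 replicate 3) and 406 to 589 negative departures. The retina's own shifts at CT0, 203 higher and 210 lower, became 13 and 39 against CT4 and CT20 alone (pineal shifts 428 and 488, a setting added after seeing the data), 129 and 138 without CT12 in the reference, and 318 lower with DESeq2. They ran from 116 to 208 and from 125 to 216 with 1 library left out, with 125 and 129 without retina CT0 replicate 2 and 116 and 125 without replicate 3. Pineal shifts ran from 719 to 997 higher and from 783 to 1111 lower, and the CT0 tissue difference from 5309 to 5746 and from 5107 to 5526. Departures of PAK6 (-0.41 in both) and TAC1 (-0.03, and -0.04 with gene sums) changed sign without pineal CT0 replicate 2, and that of POU4F2 (-0.65) without pineal CT0 replicate 1. With single libraries left out, PAK6 ran from -0.41 to 3.50, TAC1 from -0.03 to 3.13 and POU4F2 from -0.65 to 3.32. DESeq2 called 540 positive and 617 negative departures, and limma on log2(FPKM + 0.1) 472 and 477. The deviations of same-numbered libraries had correlations from -0.13 to 0.38, and 4 of 198 pairs were over 0.1. Of the 3 replicate numbers, the mean correlation was highest with libraries of their own number in 19 of the 36 libraries. How many would do so if the numbers meant nothing was not worked out. What the replicate number marks is not stated in the labels. With the replicate block 375 and 545 departures were called, and 89 of 95 named calls were kept. Without the 3 pineal libraries low in TTR 89 were kept as well. ARNTL2, MAOA, OTX2, PRKAR2B and POU4F2 were among those lost without these libraries. Of the 95, 47 were called under all 52 alternatives and 48 against CT4 and CT20 alone. With 4994388 to 9434608 counts per library, a departure such as that of RGS8 rests on a few counts. The promoter motif comparison was not run.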

Other observations

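FNDC9, a transmembrane protein gene chosen after its values were seen, had 420, 378 and 561 CPM in the pineal gland at CT0 and 44.4 through 112 to 506 CPM at the other times, while the retina CT0 libraries had 1.1, 0.826 and 1.32 CPM. Its departure was 1.65 ± 0.38 (edgeR adjusted p = 0.00659), and the call was lost in 3 of 52 alternative settings. Transcripts of genes with a single transcript in the table were called for departure in 6.55% of cases, and those of genes with several in 4.15%.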
